A study of Homo sapiens with 3 samples.

Results

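Polycomb repressive complex 2 (PRC2) is represented here by 10 genes, chosen by name out of 23284 in the deposited gene table, and by their 27 transcript models out of 41138 in the isoform table. The core subunits are EZH2, EZH1, EED, SUZ12, RBBP4 and RBBP7, and the accessory subunits are PHF1, MTF2, PHF19 and JARID2. They were chosen with earlier results of these data known, the isoform values of PHF1 among them, so all values below are descriptions. PRC2 methylates lysine 27 of histone H3, a mark of silenced developmental genes. EZH2 or EZH1 is the methyltransferase, SUZ12 the scaffold, EED the subunit that binds the finished mark and stimulates the enzyme, and RBBP4 and RBBP7 are histone-binding proteins that other chromatin complexes also use. PHF1, MTF2 and PHF19 are the Polycomb-like proteins, whose Tudor domain binds methylated histone H3, and JARID2 belongs with AEBP2 to a separate form of the complex.

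The RNA came from HEK293T, a human embryonic kidney cell line that carries the SV40 large T antigen. There were 3 libraries of polyadenylated RNA, 1 each from cells given a negative control siRNA, an siRNA against ESRP2 (an epithelial splicing regulator) and an siRNA against Arkadia (the ubiquitin ligase encoded by RNF111). All cells were harvested 48 h after seeding and received no TGF-beta. How many different siRNAs were used per target is not given in the sources used here. With 1 library per siRNA there is no replicate and no test: each difference is one between libraries, and fewer cells with a transcript cannot be told apart from less of it per cell.

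The steps of the interval bounds of low genes implied about 12050000, 12460000 and 9020000 reads with control, ESRP2 and Arkadia siRNA, so the Arkadia siRNA library was the shallowest. RNF111 had an FPKM (fragments per kilobase of transcript, scaled to the depth of the library) of 6.38 with control and 1.15 with Arkadia siRNA, and ESRP2 one of 14.8 with control and 4.27 with ESRP2 siRNA, so each target was lower in the library that carries its label. VIM stood between 301 and 410 and KRT18 between 104 and 131. KRT8 was at only 5.91, 7.10 and 9.20 with control, ESRP2 and Arkadia siRNA, with a lower bound of 0 in each. PTPRC, ALB, PECAM1 and COL3A1, which mark other cell types, were all below 0.6.

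The PHF1 isoforms that differed between libraries are 11 nt apart in length. Of the 3 PHF1 transcript models in the table, NM_024165 (2295 nt) and NM_002636 (2189 nt) are coding and NR_027692 (2284 nt) is classed by RefSeq as non-coding. NR_027692 is 11 nt shorter than NM_024165, and NM_002636 is 106 nt shorter. In GENCODE 29, on the later build GRCh38, the coding model PHF1-202 begins exon 12 at position 33414955 of chromosome 6, and the model PHF1-211 begins it at 33414966. The 11 nt between these starts (chr6:33414955-33414965, plus strand), all of them coding, are absent from PHF1-211, which also ends and begins elsewhere. NM_002636 pairs with PHF1-201, which lacks the same 11 nt and an exon of 95 nt. GENCODE pairs the accession of NR_027692 with PHF1-202 and gives it no model of its own, so PHF1-211 is shown for its exon 12 and not as the same transcript. That NR_027692 lacks these same 11 nt is inferred from the lengths and from PHF1-211. The exon 11 to exon 12 junction of both models is printed 5′ to 3′, from the GENCODE 29 transcripts, with the 11 nt in capitals.
PHF1-202: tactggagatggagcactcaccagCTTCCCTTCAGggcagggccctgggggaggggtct
PHF1-211: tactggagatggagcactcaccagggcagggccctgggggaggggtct

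A length of 11 nt is not a multiple of 3, so its absence from PHF1-211 shifts the reading frame. GENCODE 29 places the stop codon of PHF1-211 at position 33415264 in exon 13, with 2 exons after it and 144 nt before the last junction, and classes the model as a target of nonsense-mediated decay. The stop codon of PHF1-202 lies in its last exon, exon 15. The stretch around the stop codon of PHF1-211, with the stop in capitals, follows.
PHF1-211 stop: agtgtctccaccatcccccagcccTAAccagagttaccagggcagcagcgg

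PHF1 was listed almost wholly as its coding isoform with control siRNA and almost wholly as its non-coding isoform in both knockdown libraries. With control siRNA NM_024165 stood at an FPKM of 5.20, with an authors' interval of 2.12 to 8.25, and NR_027692 at 0.116 (0 to 0.604). With ESRP2 siRNA NM_024165 stood at 0.00893 (0 to 0.0401) and NR_027692 at 8.28 (3.58 to 13.0). With Arkadia siRNA the values were 0.0105 (0 to 0.0401) and 8.06 (3.50 to 12.6). The control library was thus high for the coding model and low for the non-coding one, the other 2 libraries were the reverse, and for both models the control interval overlapped neither of the others. Of the 27 member models, intervals did not overlap control for 2 with ESRP2 siRNA and 3 with Arkadia siRNA. The share over all models is not given here.

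As a share of the gene's summed FPKM, NM_024165 made up 97.8% with control, 0.107% with ESRP2 and 0.130% with Arkadia siRNA. NR_027692 made up 2.18%, 99.4% and 99.7%. NM_002636 on the reference chromosome stayed below 0.5% in each library. The table also holds the 3 models on an alternate assembly of chromosome 6, all listed at 0. Both coding models together came to an FPKM of 5.20, 0.0502 and 0.0203 with control, ESRP2 and Arkadia siRNA.

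**Figure D1:**
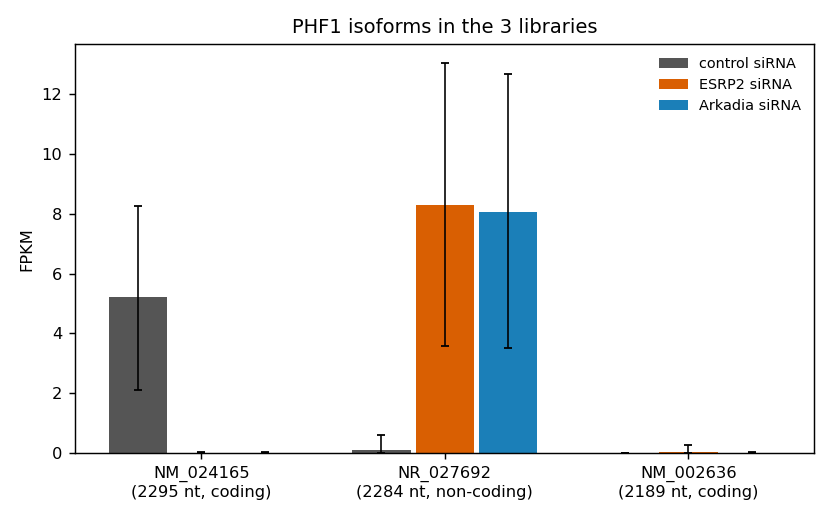
FPKM (y axis) of the 3 PHF1 transcript models on the reference chromosome (x axis) in each of the 3 siRNA libraries; bars are the deposited FPKM and lines the authors' intervals. NM_024165 is at 5.20 with control siRNA only, and NR_027692 is at 8.28 and 8.06 in the knockdown libraries.

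The usage change, which is the summed absolute change of isoform shares divided by 2, was 0.98 for PHF1 with ESRP2 siRNA against control and 0.98 with Arkadia siRNA against control. It was 0.0037 between the knockdown libraries. These values are among those that put PHF1 on the list, and both comparisons share the control library. Among the 3455 genes that have 2 isoforms or more and whose isoforms sum to 5 FPKM or more everywhere, 20.0% passed a usage change of 0.25 with ESRP2 siRNA, 17.1% with Arkadia siRNA and 26.3% between the knockdowns. A change of 0.95 or more was seen in 0.145%, 0.116% and 0.318% of them, and in both comparisons with control in 1 gene, PHF1 (0.0289%).

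PHF1 was the least abundant member with control siRNA, and its isoforms rest on few reads. Its FPKM was equivalent to about 147, 237 and 167 reads with control, ESRP2 and Arkadia siRNA, over the whole transcript. A difference of 11 nt is 0.479% of the length of NM_024165, and the number of reads that told both models apart is not given in the sources used here. Among genes whose leading pair of isoforms differed by 1 to 11 nt, 24.6% of 240 passed a usage change of 0.25 with ESRP2 siRNA and 22.9% with Arkadia siRNA; where the pair differed by more than 11 nt, these were 19.8% and 16.8% of 3168. Between the knockdowns the shares were 26.7% and 26.5%. The part that read assignment plays in the PHF1 result was not tested.

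At the gene level PHF1 (hg19 chromosome 6, 33378773 to 33384230) stood at an FPKM of 5.32 (2.20 to 8.42) with control, 8.33 (3.58 to 13.0) with ESRP2 and 8.08 (3.50 to 12.6) with Arkadia siRNA. All 3 intervals overlapped. The log2 ratio of FPKM + 1, a scale that understates the changes of low genes, was 0.56 with ESRP2 siRNA and 0.52 with Arkadia siRNA. Neither passed the 1.5-fold (0.58 in log2) used here to call a member higher or lower. The genes closest to PHF1 over these 2 ratios, by Euclidean distance across 3 libraries, were LINC00152 (distance 0.0094), TIMMDC1 (0.013) and C21orf119 (0.014).

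With ESRP2 siRNA, of the 10 members, all of which passed the filter on low values, 5 were called higher (EZH2, EED, SUZ12, RBBP4 and MTF2) and 1 lower (PHF19). Of all 11870 genes tested, 19.9% were called higher and 11.4% lower, 31.3% in all. The median log2 ratio was 0.58 for the members and 0.12 for all genes. The ratios moved with GC content: once the median of its GC decile was subtracted from each gene, EZH2 and EED alone of these 6 kept their call and the members' median was 0.21. RBBP4, at 0.59, also lost its call under both rescalings and after subtraction of length deciles. With Arkadia siRNA, 0 members were called higher and 3 lower (EED, SUZ12 and RBBP4), where 9.81% of all genes were higher and 11.8% lower, 21.6% in all; the medians were 0.082 and -0.017. At 2-fold, EZH2 alone was higher with ESRP2 siRNA (5.45% of all genes) and 0 members were lower (2.42%), and RBBP4 alone was lower with Arkadia siRNA (2.24%), with 0 higher (1.68%). Above control with ESRP2 siRNA and below it with Arkadia siRNA, by any amount, were 4 of 10 members (40%) and 36.3% of all genes. Past 1.5-fold in both directions were EED, SUZ12 and RBBP4, and 488 of all 11870 genes (4.11%); after GC subtraction EED alone kept both calls. Both comparisons share the control library, so these counts are descriptions. The authors' intervals overlapped control for 10 of 10 members in both comparisons, and they did not overlap for 1.28% and 0.438% of all genes.

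The catalytic subunits differed in abundance and in how far they moved. EZH2 (chromosome 7, 148504464 to 148581441) had an FPKM of 32.0 (15.0 to 49.0) with control, 69.5 (32.9 to 106) with ESRP2 and 38.3 (17.9 to 58.6) with Arkadia siRNA. It was high with ESRP2 siRNA and similar in the other 2 libraries, with log2 ratios of 1.09 and 0.25 against control. EZH1 (chromosome 17, 40852293 to 40897071), the paralog that prevails in non-dividing cells, stood at 6.02 (2.98 to 9.07), 7.16 (3.56 to 10.8) and 6.14 (3.03 to 9.26). EZH2 thus exceeded EZH1 by 5.32-fold, 9.71-fold and 6.23-fold in FPKM with control, ESRP2 and Arkadia siRNA.

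EED and SUZ12, which together with EZH2 form the minimal active enzyme, were highest with ESRP2 siRNA and lowest with Arkadia siRNA. EED (chromosome 11, 85955806 to 85989785) had an FPKM of 22.4 (10.3 to 34.6) with control, 44.9 (21.4 to 68.3) with ESRP2 and 12.5 (5.63 to 19.3) with Arkadia siRNA. SUZ12 (chromosome 17, 30264044 to 30328057) followed the same order at 14.4 (7.16 to 21.6), 27.2 (13.8 to 40.6) and 8.93 (4.42 to 13.5). Their log2 ratios against control were 0.97 and 0.88 with ESRP2 siRNA and -0.80 and -0.63 with Arkadia siRNA. The FPKM of EED was 1.56, 1.65 and 1.40 times that of SUZ12 in the 3 libraries, while EZH2 was 1.43, 1.55 and 3.06 times EED.

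RBBP4 and RBBP7, close paralogs, differed most from each other with Arkadia siRNA. RBBP4 (chromosome 1, 33116749 to 33168361) had an FPKM of 72.1 (35.0 to 109) with control, 109 (55.1 to 164) with ESRP2 and 33.7 (15.7 to 51.7) with Arkadia siRNA, with log2 ratios of 0.59 and -1.08. RBBP7 (X chromosome, 16862775 to 16888534) was the most abundant member in each library at 235 (117 to 353), 297 (148 to 445) and 277 (138 to 416), with ratios of 0.34 and 0.24. The FPKM of RBBP7 was 3.26, 2.71 and 8.23 times that of RBBP4 with control, ESRP2 and Arkadia siRNA. The locus of RBBP4 in the table is also that of SYNC, a gene quantified with it, which stood at 29.5, 37.2 and 8.35 in the same order; any use of strand is not given in the sources used here, so reads where both genes overlap are uncertain.

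**Figure D2:**
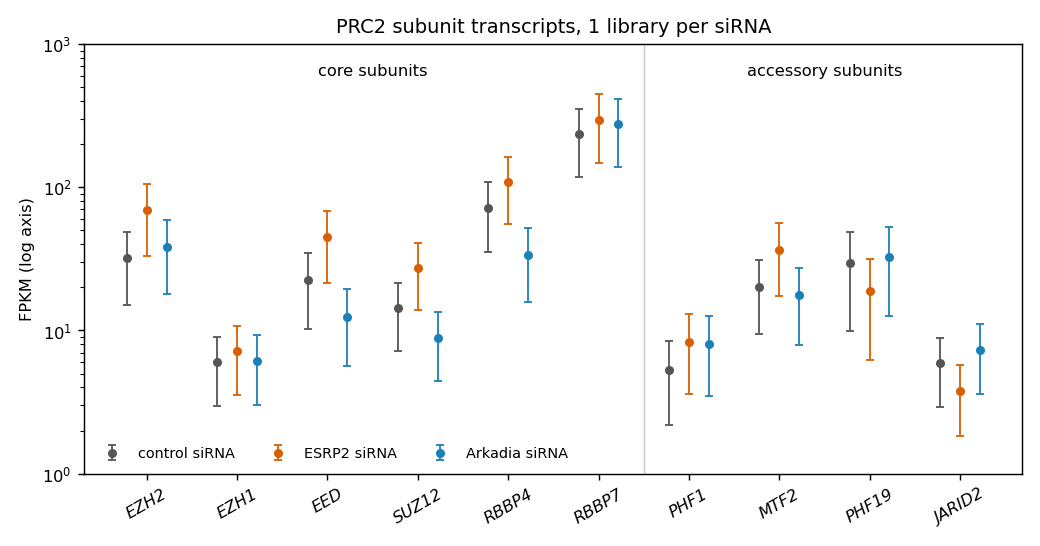
FPKM (log axis) of the 10 members in each of the 3 siRNA libraries; points are the deposited values and lines the authors' intervals. RBBP7 is highest in each library, and EED, SUZ12 and RBBP4 are highest with ESRP2 siRNA and lowest with Arkadia siRNA.

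The Polycomb-like subunits differed in their balance of FPKM, with MTF2 ahead of PHF19 with ESRP2 siRNA and behind it in the other libraries. This order rests on FPKM, most of which PHF19 had on a short model of 988 nt. In approximate reads MTF2 exceeded PHF19 in each library. These were 988, 1841 and 642 for MTF2 and 637, 401 and 390 for PHF19 with control, ESRP2 and Arkadia siRNA. The intervals of MTF2 and PHF19 overlapped in each library. Their GC contents of 37.9% and 57.9% lie far apart, and after GC subtraction both lost their call with ESRP2 siRNA (0.24 and -0.38). MTF2 (chromosome 1, 93544792 to 93604638) had an FPKM of 20.1 (9.45 to 30.8) with control, 36.7 (17.5 to 56.0) with ESRP2 and 17.7 (7.94 to 27.5) with Arkadia siRNA, and was high in the ESRP2 siRNA library, with log2 ratios of 0.84 and -0.17. PHF19 (chromosome 9, 123617931 to 123639606) was low there, at 29.4 (9.96 to 49.0), 18.9 (6.20 to 31.6) and 32.5 (12.5 to 52.4), with log2 ratios of -0.61 and 0.14. Of the summed FPKM of PHF1, MTF2 and PHF19, MTF2 made up 36.7%, 57.4% and 30.4% with control, ESRP2 and Arkadia siRNA, PHF19 53.6%, 29.5% and 55.8%, and PHF1 9.71%, 13.0% and 13.9%. In both knockdown libraries the PHF1 part was almost wholly the non-coding model NR_027692. The coding PHF1 models came to an FPKM of 5.20, 0.0502 and 0.0203 with control, ESRP2 and Arkadia siRNA.

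JARID2 (chromosome 6, 15246527 to 15522253), a DNA-binding subunit that helps to recruit the complex, had an FPKM of 5.93 (2.93 to 8.92) with control, 3.80 (1.82 to 5.76) with ESRP2 and 7.32 (3.61 to 11.02) with Arkadia siRNA. It was lowest with ESRP2 siRNA, with a log2 ratio of -0.53 that missed 1.5-fold. It came past 1.5-fold under 5 alternatives: -0.63 with a pseudocount of 0.1, -0.63 and -0.67 under the rescalings, and -0.59 and -0.73 after subtraction of GC and length deciles. The summed FPKM of the Polycomb-like genes was 9.24, 16.9 and 7.96 times that of JARID2 in the 3 libraries. That sum includes the non-coding model of PHF1.

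In each library RBBP7 ranked first. With control siRNA the order was then RBBP4, EZH2, PHF19, EED, MTF2, SUZ12, EZH1, JARID2 and PHF1, and RBBP7 was the only member whose interval did not overlap that of the next. With ESRP2 siRNA each neighbour in the order overlapped the next, and PHF19 stood in the seventh place. With Arkadia siRNA EZH2 stood above RBBP4, and again only the interval of RBBP7 was apart from the next.

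Between the knockdown libraries themselves more members were called than in either comparison with control, and so were more of all genes. PHF1 (log2 ratio -0.040) and RBBP7 (-0.098) instead stood closer together here than against control. With Arkadia siRNA against ESRP2 siRNA, 5 members were lower (EZH2, EED, SUZ12, RBBP4 and MTF2) and 2 higher (PHF19 and JARID2), where 30.8% of all genes were lower and 21.2% higher, 52.0% in all. At 2-fold 4 members were lower (15.5% of all genes) and 0 higher (8.90%). The intervals did not overlap for EED, SUZ12 and RBBP4, with log2 ratios of -1.77, -1.51 and -1.67, against 6.36% of all genes. JARID2 had a ratio of 0.79 and PHF19 one of 0.75. After GC subtraction EZH2 (-0.37), SUZ12 (-0.44), MTF2 (0.058) and PHF19 (0.27) lost their call here, and the ratio of MTF2 changed sign.

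**Figure D3:**
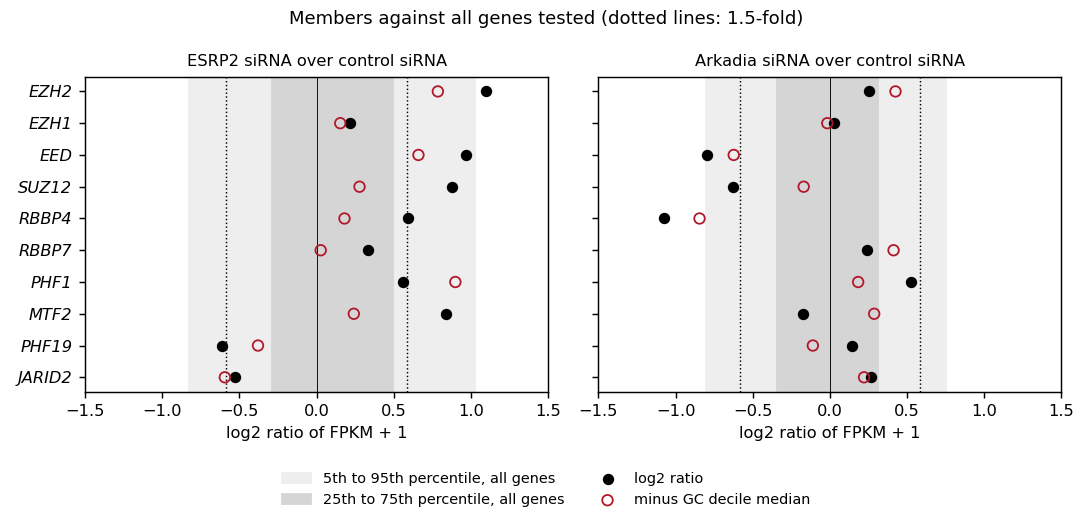
Log2 ratio of FPKM + 1 (x axis) of each member with ESRP2 siRNA (left) and Arkadia siRNA (right) over control siRNA, filled points, and after subtraction of the median of its GC decile, open points; bands show the percentiles of all 11870 genes and dotted lines 1.5-fold. EZH2 lies at 1.09 on the left and RBBP4 at -1.08 on the right.

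The ratios of all genes moved with transcript GC content, and the members cover much of its range. From the lowest to the highest GC decile, the median log2 ratio of all genes went from 0.60 to -0.49 with ESRP2 siRNA and from -0.46 to 0.34 with Arkadia siRNA. MTF2 and SUZ12 had a GC content of 37.9% and 38.03%, RBBP4 41.6%, EZH2 44.8%, RBBP7 45.2% and EED 45.9%. JARID2 and EZH1 had 50.2% and 50.5%, PHF19 57.9% and PHF1 59.9%. MTF2, SUZ12, RBBP4 and EZH2, the members of lowest GC content, were all among those called higher with ESRP2 siRNA; the part of GC content in these ratios was not tested beyond the subtraction that follows.

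After the decile medians were subtracted, EZH2 (0.79) and EED (0.66) were still past 1.5-fold with ESRP2 siRNA. SUZ12 (0.28), MTF2 (0.24), RBBP4 (0.18) and PHF19 (-0.38) were not, and PHF1 (0.90) and JARID2 (-0.59) came past it. On that scale 9.20% of genes were higher and 7.70% lower. With Arkadia siRNA, RBBP4 (-0.85) and EED (-0.62) kept their call and SUZ12 (-0.17) lost it, where 6.35% of genes were higher and 7.01% lower. The median of the members was then 0.21 and 0.083. Between the knockdowns, EED (-1.29), RBBP4 (-1.04) and PHF1 (-0.69) were lower and JARID2 (0.82) higher, where 14.1% of genes were lower and 12.4% higher.

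**Figure D4:**
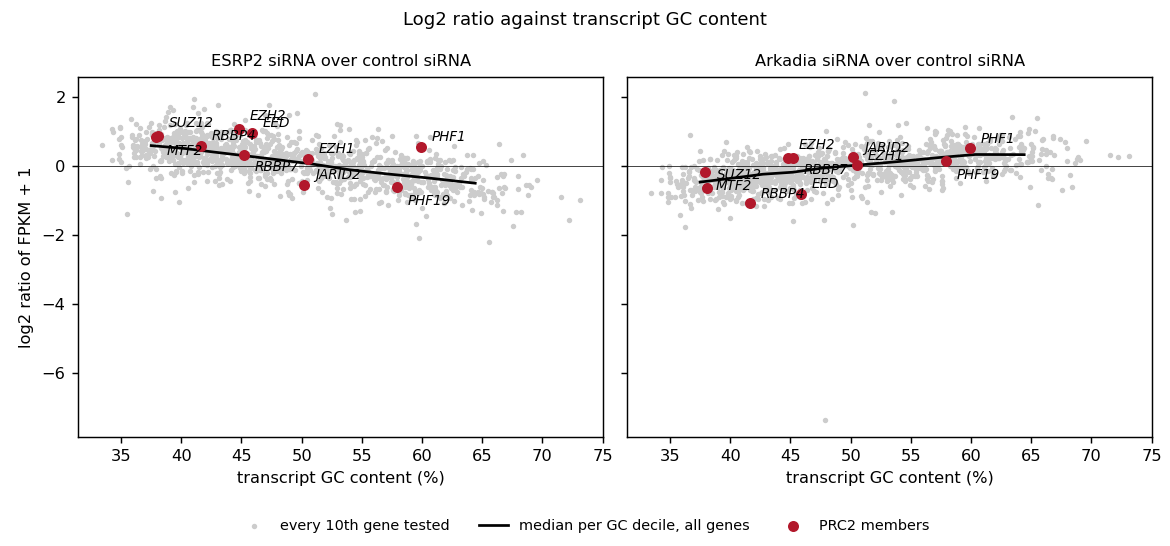
Log2 ratio of FPKM + 1 (y axis) against transcript GC content (x axis) with ESRP2 siRNA (left) and Arkadia siRNA (right) over control siRNA: members in red, every 10th gene tested in grey, and the median of each GC decile as a line. EZH2 and EED lie above the line on the left, RBBP4 and EED below it on the right, and PHF1 at 59.9% GC lies above it on the left.

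Of the other members, 6 entered the isoform comparison beside PHF1, and MTF2 alone passed a usage change of 0.25, beside 20.0%, 17.1% and 26.3% of all genes compared. It was 0.31 with ESRP2 siRNA, 0.46 with Arkadia siRNA and 0.39 between the knockdowns. NM_007358, the longest model, made up 74.0% of MTF2 with control, 43.3% with ESRP2 and 31.8% with Arkadia siRNA. NM_001164392, whose GENCODE model lacks a coding stretch of 171 nt, went from 14.3% and 14.8% with control and ESRP2 siRNA to 54.2% with Arkadia siRNA. NM_001164393 was at 24.2% with ESRP2 siRNA against 5.53% with control and 1.61% with Arkadia siRNA, and NM_001164391 at 6.15%, 17.7% and 12.4%. The intervals of each MTF2 isoform overlapped between all libraries.

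EZH2 was divided among 3 main coding isoforms. NM_001203247 led with 57.9%, 51.2% and 66.9% with control, ESRP2 and Arkadia siRNA. NM_001203248, which lacks 27 coding nt, made up 27.9%, 23.7% and 11.1%, and NM_152998, which lacks a coding stretch of 117 nt, 10.7%, 25.1% and 17.4%. The usage changes were 0.14 and 0.18 against control. NM_004456, which adds 15 coding nt, and NM_001203249 were below the share set for naming. NM_004456 was listed at 0 in both knockdown libraries and at an FPKM of 0.530 (0 to 2.59), or 1.66%, with control siRNA. NM_001203249 had 1.90%, 0% and 4.61% with control, ESRP2 and Arkadia siRNA. The intervals of each EZH2 isoform overlapped between all libraries. Both lengths that separate the leading models are multiples of 3, unlike the 11 nt of PHF1. The 27 nt are shown in capitals in the GENCODE transcript of NM_001203247, in which they occupy chr7:148846470-148846496 of GRCh38, minus strand.
EZH2 NM_001203247: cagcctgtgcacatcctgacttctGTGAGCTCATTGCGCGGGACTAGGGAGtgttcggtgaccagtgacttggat

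PHF19 was counted mostly as its short form. NM_001009936 (988 nt) made up 75.4%, 78.3% and 89.6% of its FPKM with control, ESRP2 and Arkadia siRNA, the remainder being NM_015651 (4287 nt). Since FPKM is per length, the short form held a smaller share of fragments, 41.4%, 45.5% and 66.6%. The usage change with Arkadia siRNA was 0.14 on the FPKM scale and 0.25, past the threshold, on shares of fragments.

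RBBP4 and RBBP7 have isoforms with alternative first exons. NM_001135256 of RBBP4 stood at an FPKM of 0.00107 with control and 0.00801 with ESRP2 siRNA and at 3.89 (0.0220 to 10.2) with Arkadia siRNA, where it made up 11.6% of the gene. Its Arkadia siRNA interval, with a lower bound of 0.0220, did not overlap those of the other 2 libraries. Those were 0 to 0 with control and 0 to 0.0110 with ESRP2 siRNA, so the lack of overlap rests on values at the floor. NM_002893 of RBBP7 made up 83.1%, 87.8% and 81.2%, with NM_001198719 as the remainder. EED was listed wholly as NM_003797, and EZH1, SUZ12 and JARID2 have a single model. The 8 models of the 27 with a share below 10% in each library reached at most 4.61%, and 5 of them were listed at 0 throughout.

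**Figure D5:**
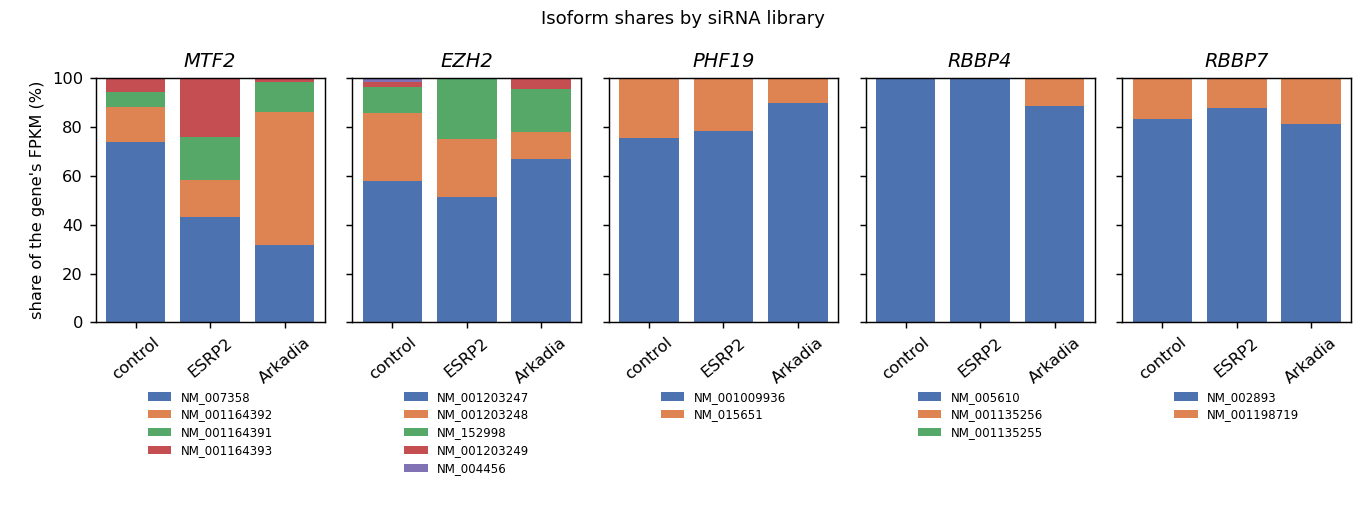
Share of each gene's summed FPKM (y axis, %) taken by its isoforms, stacked, for each of the 3 siRNA libraries. NM_007358 of MTF2 goes from 74.0% with control to 31.8% with Arkadia siRNA, and NM_001135256 of RBBP4 appears at 11.6% in the Arkadia siRNA library.

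Other PRC2 partners were few. AEBP2, the partner of JARID2, had an FPKM of 5.36 with control, 13.1 with ESRP2 and 4.27 with Arkadia siRNA. Its log2 ratio with ESRP2 siRNA was 1.15, and 0.64 after GC subtraction. It was the only one of 4 measured partners called higher there, beside 19.9% of all genes, and 0 were lower (11.4%). With Arkadia siRNA, LCOR was the only one called lower, beside 11.8% of all genes, and 0 were higher (9.81%). LCOR stood at 3.14 (1.36 to 4.93) with control and 0.726 (0.297 to 1.15) with Arkadia siRNA. These intervals did not overlap, beside 0.438% of all genes. LCOR was below the level set for naming and is given because it makes up the count. C10orf12 and C17orf96 were called in neither comparison.

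Polycomb repressive complex 1, which ubiquitinates histone H2A and reads the PRC2 mark, had 3 higher and 6 lower of 27 subunits with ESRP2 siRNA, where 19.9% and 11.4% of all genes were, with a median log2 ratio of 0.11. CBX6, a chromodomain reader of the mark, was at 45.4 with control and 21.9 with ESRP2 siRNA (log2 ratio -1.02), and RING1, a ubiquitin ligase subunit, at 24.4 and 11.6 (-1.01). With Arkadia siRNA 3 were higher and 4 lower, beside 9.81% and 11.8% of all genes, with a median of 0.018. BMI1, another subunit of that ligase, was at 30.6 with control, 17.1 with ESRP2 and 13.0 with Arkadia siRNA (-1.18 with Arkadia siRNA), and CBX8 at 5.98 with control and 10.1 with Arkadia siRNA (0.67). After GC subtraction CBX8 (0.42) lost its call, and CBX6 (-0.68), RING1 (-0.68) and BMI1 (-0.84) kept theirs. The intervals of all 27 subunits overlapped control in both comparisons, where they did not overlap for 1.28% and 0.438% of all genes.

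Of the enzymes that act against or beside PRC2, the demethylases of its mark, KDM6A and KDM6B, and 6 methyltransferases of histone H3 lysine 36 had 0 calls in either comparison with control, where 31.3% and 21.6% of all genes were called. The BAP1 complex, which removes the mark of Polycomb repressive complex 1, had 1 higher and 1 lower of 7 with ESRP2 siRNA (MBD5, which is below the level set for naming, and MBD6), and 1 lower with Arkadia siRNA (ASXL2, from 6.67 to 3.33). Beside these, 19.9% of all genes were higher and 11.4% lower with ESRP2 siRNA, and 9.81% and 11.8% with Arkadia siRNA. MBD6 stood at 8.87 with control and 5.23 with ESRP2 siRNA, and its log2 ratio of -0.66 became -0.17 after GC subtraction, without a call.

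The other complexes that hold RBBP4 and RBBP7, among them the Sin3 and NuRD deacetylases, had 6 higher and 3 lower of 26 with ESRP2 siRNA, beside 19.9% and 11.4% of all genes, and a median log2 ratio of -0.026. SUDS3, a Sin3 subunit, was at 11.3 with control and 45.8 with ESRP2 siRNA, a log2 ratio of 1.92. It was the only one of the 26 whose intervals did not overlap, beside 1.28% of all genes. ARID4B, of the same complex, stood at 11.7 and 23.5; its log2 ratio of 0.95 became 0.44 after GC subtraction, without a call, while that of SUDS3 was 1.61. With Arkadia siRNA, SAP18 was the only one higher (34.9 with control, 62.6 with Arkadia siRNA) and ARID4A the only one lower. SAP18 kept its call after GC subtraction (1.06). ARID4A, below the level set for naming, went from 3.10 to 1.38, a log2 ratio of -0.78. Its GC content was 37.5%, and genes of the lowest GC decile had a median ratio of -0.46 with Arkadia siRNA against control. Of all genes, 9.81% were higher and 11.8% lower in that comparison.

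Of 40 developmental genes known as Polycomb targets, 29 passed the filter. With ESRP2 siRNA 3 were higher and 4 lower, beside 19.9% and 11.4% of all genes, with a median log2 ratio of -0.11; GATA6 went from 6.53 to 11.8 and NKX2-5 from 19.8 to 11.7. With Arkadia siRNA 3 were higher (GATA2, GATA4 and BMP2) and 0 lower, beside 9.81% and 11.8% of all genes, with a median of 0.087. GATA4, a transcription factor of heart and endoderm, was at 8.01 with control and 19.6 with Arkadia siRNA (1.19), and GATA2 at 9.17 and 15.2 (0.67). After GC subtraction GATA2 (0.34) and NKX2-5 (-0.22) lost their calls, and GATA4 (0.85) and GATA6 (0.87) kept theirs. BMP2, named after its values were seen, was at 0.760 with control, 0.632 with ESRP2 and 3.97 with Arkadia siRNA; it passed the filter on low values only through the library where it was high, so its call is no support for a change among these genes.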

How the data were processed

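Polyadenylated RNA was measured in 3 HEK293T libraries, 1 per siRNA, so there are no replicates and no tests. Per the submitters' processing notes, the authors used hg19 and, among other tools, TopHat2 (2.0.10), Cufflinks (2.1.1), Bowtie2 (2.1.0) and Cuffdiff; the deposited tables hold FPKM with a lower and an upper bound, whose level was not given in the sources used here. From these, log2 ratios were computed with a pseudocount of 1 FPKM over the 11870 genes of status OK whose mean FPKM was 1 or more and whose longest isoform had 300 nt or more. Calls used 1.5-fold. Usage needed 2 isoforms and 5 FPKM summed. GC content was that of GENCODE 29 transcripts (97.2% of genes found through RefSeq accessions, 1.83% through symbols). Depth came from interval bounds that were whole multiples of a unit (tolerance 0.02) in 1264 of 1767 low genes. Named were all members, isoforms holding a share of 10% or more, the 3 genes nearest PHF1 and up to 2 genes per other list and comparison with 5 FPKM or more in a library; exceptions are stated. Members and lists were chosen with earlier results of these data known. The scripts (Python 3.11.15, numpy 2.4.6, pandas 2.3.3) were tested on simulated data. Alternatives changed the pseudocount, filter, scaling, fold, GC and length subtraction, and isoform shares.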

Additional observations from a re-analysis of the deposited data

How the results depend on the processing

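No paired analysis was possible because each siRNA has 1 library. GC subtraction had the largest effect among the 6 alternatives run on the 30 member ratios (10 members, 3 comparisons): of 16 calls 7 were kept and 3 gained, and 5 ratios changed sign. The rescalings kept 15 calls each and changed 2 signs each, length subtraction kept 14 and changed 1, and a pseudocount of 0.1 and summed isoforms kept all 16. With ESRP2 siRNA, the members called lower went from 1 to 2 with a pseudocount of 0.1, under both rescalings (median of ratios, upper quartile) and after subtraction of length deciles; the member gained was JARID2 each time. Both rescalings and length subtraction took RBBP4 out of the 5 called higher, length subtraction took SUZ12 (-0.55) out of those lower with Arkadia siRNA, and a pseudocount of 0.1 added PHF1 to those higher with ESRP2 siRNA. Rescaling moved the median of all genes by -0.11 and -0.15 in that comparison. After GC subtraction 3 members were higher with ESRP2 siRNA, and 1 higher and 3 lower between the knockdowns, where the ratio of MTF2 turned from -1.01 to 0.058. A pseudocount of 0.1 called 1 member (PHF1) higher with Arkadia siRNA. At 2-fold in place of 1.5-fold, ESRP2 siRNA had 1 higher and 0 lower, Arkadia siRNA 1 lower, and the knockdowns 0 higher. The usage change of PHF1 against control was 0.94 to 0.98 under 4 isoform alternatives. All 4 reuse the deposited assignment of reads to models, so they do not test that assignment. The usage change of PHF19 with Arkadia siRNA became 0.25 when shares of fragments were used. Leaving out a library was not possible with 1 per siRNA. The lower depth of the Arkadia siRNA library and the few reads of PHF1 limit the precision of the isoform values.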
